A study of Mus musculus with 16 samples.

Results

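The Ms4a genes described here were the 6 rows of the count table named *Ms4a4b*, *Ms4a4c*, *Ms4a6b*, *Ms4a6c*, *Ms4a6d* and *Ms4a2*, out of 46078 genes. The members were chosen by their place in this family and selected on measured values, since *Ms4a4b* had no count in the MAC-1- samples taken 4 weeks after transplantation. Its levels against that population are therefore given as a description with no test. The samples were hematopoietic stem cells (HSCs) from B6.SJL, wild-type bone marrow, gated as lineage-negative cKIT+ SCA1+ (LSK) CD48- CD150+ cells and further sorted by MAC-1, an integrin made of CD11B (encoded by *Itgam*) and CD18 (encoded by *Itgb2*). Steady state (SS) HSCs came from untreated mice and were taken as MAC-1- (3 samples) and MAC-1low (3 samples). HSCs of the 4 week groups came from irradiated (900 cGy) recipients given 8000 LSK cells 4 weeks earlier, and were taken as MAC-1- (3 samples), MAC-1low (4 samples) and MAC-1+ (3 samples). The transplantation text in the labels is identical for all samples, SS included, so the SS groups were read from the titles and the treatment field. The labels do not say that samples of a group came from separate mice, and p-values therefore measure the spread between these samples only.

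Ms4a genes encode small membrane proteins that cross the membrane several times and mostly sit in the plasma membrane of blood cells. CD20 on B cells (*Ms4a1*) and the beta chain of the high-affinity IgE receptor (*Ms4a2*) are the best known members, and many of the others are described in monocytes, macrophages and lymphocytes. In the mouse the genes stand side by side in a cluster on chromosome 19, where the Ms4a4 and Ms4a6 genes have multiplied by duplication.

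All 19 Ms4a genes of the count table lie within 678.6 kb of chromosome 19 (GRCm38, GENCODE M21), and the 6 members within 219.0 kb. From low to high coordinate on the + strand come *Ms4a4c* (ENSMUSG00000024675, chr19:11404770-11427246), *Ms4a4b* (ENSMUSG00000056290, chr19:11443553-11467055), *Ms4a6c* (ENSMUSG00000079419, chr19:11469366-11482192) and *Ms4a6b* (ENSMUSG00000024677, chr19:11516512-11531256). *Ms4a6d* (ENSMUSG00000024679, chr19:11586604-11604849) and *Ms4a2* (ENSMUSG00000024680, chr19:11615523-11623719) follow on the - strand. The members of a pair resemble each other in sequence: the coding sequences of *Ms4a4b* and *Ms4a4c* were identical at 91.7% of aligned bases, those of *Ms4a6b* and *Ms4a6c* at 86.4%, and *Ms4a6d* matched these at 81.8% and 79.6%. All pairs across the 3 types (Ms4a4, Ms4a6 and *Ms4a2*) were at 60.8% to 63.9%. Reads of near-identical copies can be split between genes, so the share of 50-base stretches of each member's transcripts that also occur in other genes was counted. It was highest for *Ms4a6c* (10.545%) and *Ms4a4c* (8.185%) and between 2.098% and 3.574% for the other 4 members.

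**Figure D1:**
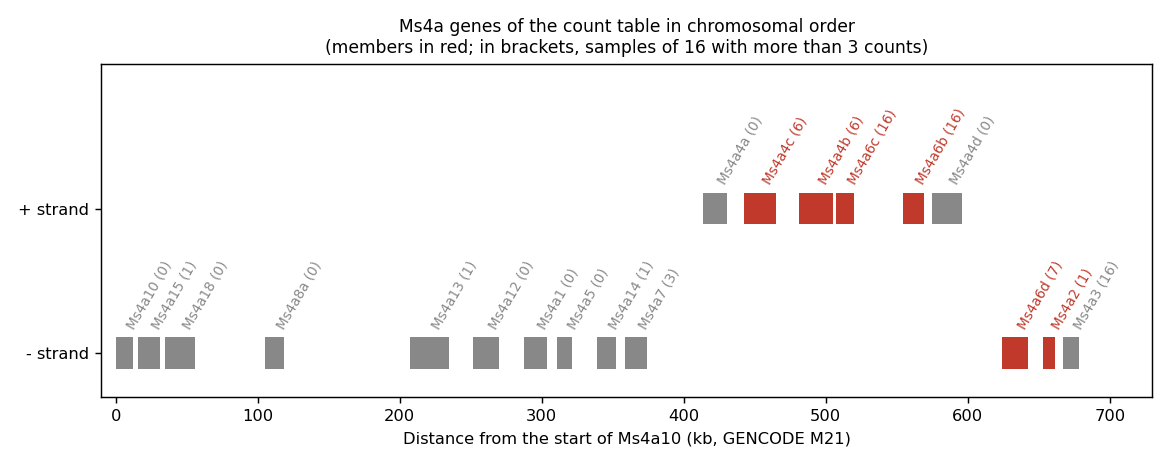
Position of the 19 Ms4a genes along chromosome 19, in kb from the start of Ms4a10, by strand (members in red). Numbers in brackets are the samples of 16 with more than 3 counts: Ms4a6b, Ms4a6c and Ms4a3 reached 16, Ms4a6d 7, Ms4a4b and Ms4a4c 6, Ms4a7 3, and every other gene 0 or 1.

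The promoters of the 4 members whose levels the results turn on are shown so that the neighbours can be compared with each other. Each run covers 250 bases before to 50 bases after the start of the gene in RefSeq (GRCm38.p6), 5′ to 3′, and capitals mark the ETS core GGAAGT or its reverse complement ACTTCC.
Ms4a4b, chr19:11443308-11443607, + strand: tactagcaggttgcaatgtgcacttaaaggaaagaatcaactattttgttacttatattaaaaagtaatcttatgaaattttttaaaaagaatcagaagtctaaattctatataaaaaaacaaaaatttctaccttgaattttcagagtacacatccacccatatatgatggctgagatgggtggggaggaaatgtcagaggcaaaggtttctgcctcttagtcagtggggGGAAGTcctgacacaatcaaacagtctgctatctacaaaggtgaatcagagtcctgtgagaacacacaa
Ms4a4c, chr19:11407411-11407710, + strand: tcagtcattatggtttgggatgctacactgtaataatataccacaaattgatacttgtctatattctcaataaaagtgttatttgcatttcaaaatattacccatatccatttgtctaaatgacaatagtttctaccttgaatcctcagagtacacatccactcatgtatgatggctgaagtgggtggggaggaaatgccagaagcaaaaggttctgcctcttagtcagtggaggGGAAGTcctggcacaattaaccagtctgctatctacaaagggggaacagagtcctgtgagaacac
Ms4a6b, chr19:11518309-11518608, + strand: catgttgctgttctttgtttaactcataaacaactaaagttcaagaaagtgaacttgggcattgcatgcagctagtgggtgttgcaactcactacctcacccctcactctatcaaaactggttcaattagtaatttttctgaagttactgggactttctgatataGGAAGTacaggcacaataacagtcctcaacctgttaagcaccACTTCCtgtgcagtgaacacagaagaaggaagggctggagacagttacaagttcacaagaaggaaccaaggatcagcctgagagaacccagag
Ms4a6c, chr19:11469118-11469417, + strand: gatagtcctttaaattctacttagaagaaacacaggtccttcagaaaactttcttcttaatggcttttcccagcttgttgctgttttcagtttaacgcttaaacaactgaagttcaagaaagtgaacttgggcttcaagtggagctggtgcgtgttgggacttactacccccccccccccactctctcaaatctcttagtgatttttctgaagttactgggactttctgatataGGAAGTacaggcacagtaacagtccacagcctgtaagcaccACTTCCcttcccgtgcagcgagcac
RefSeq promoters were found for 5 of the 6 members. These windows use starts as RefSeq has them, which for the 4 members shown differ from the gene starts of GENCODE. *Ms4a4b* and *Ms4a4c* were identical at 81.9% of 281 aligned bases and *Ms4a6b* and *Ms4a6c* at 85.3% of 225. GGAAGT, searched on both strands, stood from -19 to -14 relative to the start in *Ms4a4b* and from -15 to -10 in *Ms4a4c*. *Ms4a6b* held it from -85 to -80 and, reversed, from -43 to -38, and *Ms4a6c* from -16 to -11 and, reversed, from 25 to 30. These letters are common, with a match in 23.8% of the 32851 RefSeq promoters of that length. The GATA motif AGATAA (11.2% of all promoters) had 3 matches, in the promoter of *Ms4a2*, and none in the other 4. The interferon-stimulated response element (3.4% of all promoters) and the C/EBP motif TTGCNNAA (10.8%) had no match in the 5 windows.

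Total counts were 13781278 to 28580658 per sample. The 7 HSC markers checked (*Procr*, *Slamf1*, *Ly6a*, *Kit*, *Mecom*, *Hlf*, *Fgd5*) were present in every population, with a summed level of 1210 to 1580 CPM (counts scaled to a common library size) in the SS samples. At 4 weeks it was 1380 to 1930 CPM in MAC-1low, 2100 to 3170 CPM in MAC-1+ and 530 to 704 CPM in MAC-1- samples. *Itgam* had 96 to 478 counts in MAC-1+ samples and 0 to 95 counts in the other 13 samples. *Itgb2* did not follow the sort: its mean at 4 weeks was 26.8 CPM in MAC-1-, 11.9 CPM in MAC-1low and 13.2 CPM in MAC-1+ samples, against 5.9 CPM in SS MAC-1- and 20.1 CPM in SS MAC-1low samples. Replicate 3 of 4 week MAC-1+ stood apart: its 10 neutrophil and granulocyte progenitor genes summed to 7740 CPM, against 257 and 1140 in the other 4 week MAC-1+ samples and 89.8 to 395 in the other 13 samples. *S100a8*, a calcium-binding protein of neutrophils, had 98876 counts in it and at most 7403 elsewhere. Calls by edgeR between MAC-1+ and MAC-1- HSCs at 4 weeks are given with and without this sample.

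*Ms4a6b* and *Ms4a6c* were the members with counts in all 16 samples. On the scale of CPM per kb of exon, the mean over all samples was 53.1 for *Ms4a6c* and 42.5 for *Ms4a6b*, against 6.5 for *Ms4a4c*, 4.97 for *Ms4a6d*, 0.953 for *Ms4a4b* and 0.0766 for *Ms4a2*. This scale depends on the annotated exon length, which was 8.78 kb for *Ms4a4b* and 1.751 kb for *Ms4a4c*. Without it their means over the 4 week samples were 13.4 and 18.2 CPM. The 4 members other than *Ms4a6b* and *Ms4a6c* were each at or below 3 counts in most samples, and *Ms4a2* alone did not pass the filter on low counts. A count of 0 allows up to 3 counts (0.112 to 0.22 CPM at these totals), a floor for counting error only.

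**Figure D2:**
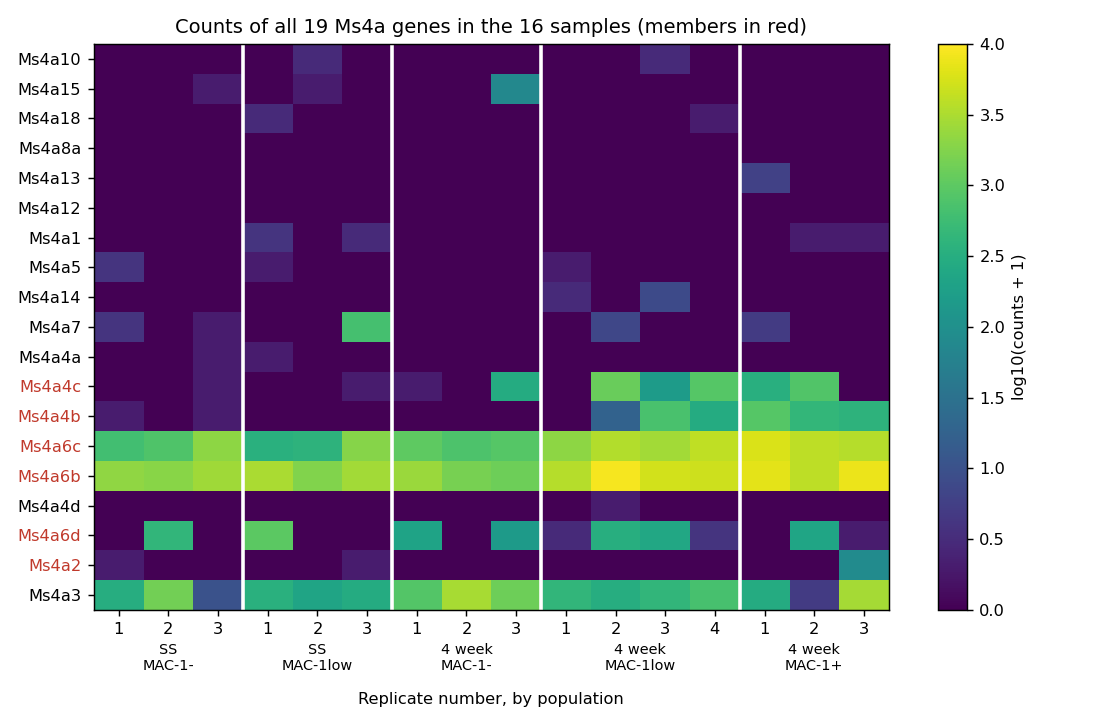
Counts of the 19 Ms4a genes (rows, in chromosomal order, members in red) in the 16 samples (columns, by population and replicate number), coloured by log10(counts + 1). Ms4a6b and Ms4a6c are bright in every column, Ms4a4b and Ms4a4c rise above 3 counts in 4 week samples alone, and Ms4a6d and Ms4a2 appear in scattered samples.

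*Ms4a6b*, of the Ms4a6 branch of the family, had 2177, 1917 and 2641 counts in SS MAC-1- and 3088, 1756 and 2824 in SS MAC-1low samples. At 4 weeks it had 2491, 1525 and 1321 counts in MAC-1-, 3532, 8660, 5251 and 5036 in MAC-1low and 6976, 4049 and 7502 in MAC-1+ samples. Scaled to CPM, the means were 98.0 ± 51.7 (SD, n = 3) in 4 week MAC-1-, 132 ± 29.8 (n = 3) in SS MAC-1-, 135 ± 32.8 (n = 3) in SS MAC-1low, 268 ± 92.7 (n = 4) in 4 week MAC-1low and 294 ± 38.5 (n = 3) in 4 week MAC-1+. In this order the first 3 populations overlapped with each other and the last pair overlapped. Between them lay a gap, from 161 CPM in the highest SS MAC-1low sample to 189 CPM in the lowest 4 week MAC-1low sample.

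*Ms4a6c*, described in monocytes, had 616, 779 and 2079 counts in SS MAC-1- and 343, 387 and 1891 in SS MAC-1low samples. At 4 weeks it had 1028, 767 and 889 counts in MAC-1-, 2111, 3405, 2799 and 4196 in MAC-1low and 5945, 4026 and 3617 in MAC-1+ samples. The mean CPM were 45.7 ± 44.9 (SD, n = 3) in SS MAC-1low, 49.1 ± 18.2 (n = 3) in 4 week MAC-1-, 64.2 ± 36.8 (n = 3) in SS MAC-1-, 147 ± 13.1 (n = 4) in 4 week MAC-1low and 226 ± 73.4 (n = 3) in 4 week MAC-1+. Again the first 3 populations overlapped, as did the last pair, and the highest of the first 3 (107 CPM) was below the lowest 4 week MAC-1low sample (129 CPM). One sample in each SS population, replicate 3 in both cases, was far above the other SS samples. The gene *BE692007*, annotated within *Ms4a6c* on the opposite strand, had 0 to 1240 counts, and since SMART-Seq libraries carry no strand, its reads cannot be told apart from those of *Ms4a6c* where both have exons.

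In both genes each of the 7 samples of 4 week MAC-1low and MAC-1+ HSCs was above each of the other 9 samples. Of the 13661 genes tested, 23 (0.168%) had this pattern. It was read from the values after they were seen, and is a description.

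**Figure D3:**
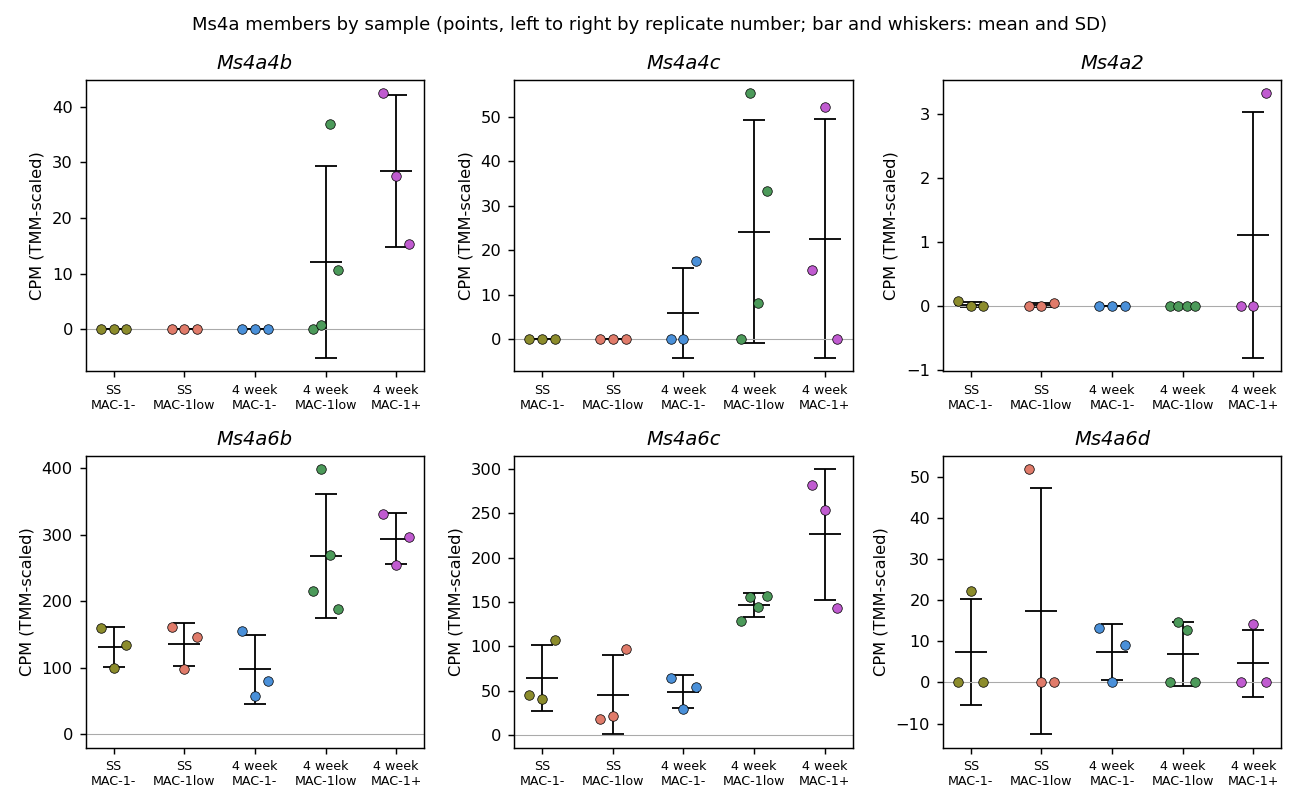
CPM (TMM-scaled) of the 6 members by population, with 1 point per sample, the mean (bar) and the SD (whiskers); each panel has its own scale. For Ms4a6b and Ms4a6c every 4 week MAC-1low and MAC-1+ sample is above every other sample, whereas Ms4a4b, Ms4a4c, Ms4a6d and Ms4a2 are near 0 in many samples and high in a few.

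The comparison of MAC-1+ and MAC-1- HSCs at 4 weeks asks how HSCs that carried MAC-1 at that time differ from those that did not. Of the 5 members other than *Ms4a4b*, 2 were called higher in MAC-1+ HSCs, *Ms4a6b* and *Ms4a6c*, and 0 lower, by edgeR at an adjusted p below 0.1 with an absolute log2 fold change over 1. Over all genes tested, 2.47% were called in this comparison, 1.11% as higher. *Ms4a6b* was higher with a log2 fold change of 1.59 (SE 0.37, adjusted p = 0.0385, edgeR), which is 3.0-fold by the mean CPM. *Ms4a6c* was higher with a log2 fold change of 2.20 (SE 0.59, adjusted p = 0.0791, edgeR), 4.6-fold by the mean CPM. The 3 samples of each group did not overlap for either gene, as held for 10.2% of genes tested in that direction. Both also had an unadjusted p below 0.05, as did 13.4% of genes tested. DESeq2, which called 8.45% of its genes, and limma-voom, which called 5.24%, called the same 2 members.

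Without replicate 3 of 4 week MAC-1+ both calls stood, with log2 fold changes of 1.61 (adjusted p = 0.0919, edgeR) for *Ms4a6b* and 2.48 (adjusted p = 0.0932, edgeR) for *Ms4a6c*. The call of *Ms4a6b* was lost without replicate 2 or 3 of 4 week MAC-1- (adjusted p = 0.169 and 0.171, edgeR), and also when only the 2 groups compared were fitted (adjusted p = 0.131, edgeR). That of *Ms4a6c* was lost without any 1 of the 3 samples of 4 week MAC-1- (adjusted p = 0.152, 0.287 and 0.224 for replicates 1 to 3, edgeR), without replicate 1 or 2 of 4 week MAC-1+ (0.183 and 0.182) and without replicate 3 or 4 of 4 week MAC-1low (0.104 and 0.107).

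Other marker lists moved in the same comparison, and their part in the values of *Ms4a6b* and *Ms4a6c* was not tested. Of the 7 HSC markers, 4 (*Hlf*, *Ly6a*, *Procr*, *Mecom*) were called higher in the MAC-1+ HSCs by edgeR, with and without replicate 3 of 4 week MAC-1+. *Kit* and *Fgd5* were higher and not called by edgeR. *Slamf1* was lower and not called (log2 fold change -0.64, adjusted p = 0.936, edgeR). It had 168, 2 and 3260 counts in MAC-1+ and 1093, 1951 and 1178 in MAC-1- samples. Of 10 neutrophil and granulocyte progenitor genes, 7 were tested and 3 (*Prtn3*, *S100a8*, *S100a9*) were called higher by edgeR. An unadjusted p below 0.05 was found in edgeR for 6 of the 7, as for 13.4% of genes tested. DESeq2 called 6 higher (also *Elane*, *Camp* and *Ngp*), where it called 4.90% of its genes higher. With limma-voom (2.78% called higher) 2 were called, *Prtn3* and *Ngp*. Without replicate 3 of 4 week MAC-1+ the edgeR call of *Prtn3* was lost (log2 fold change 0.85, adjusted p = 0.357 in place of 0.0900, edgeR). *S100a8* and *S100a9* were still called, with log2 fold changes of 3.78 and 3.38 in place of 6.15 and 5.64 (adjusted p = 0.0757 and 0.0750, edgeR). Of 14 monocyte and macrophage genes, 3 were tested and 0 called by edgeR (1 at an unadjusted p below 0.05, and 1, *Mpeg1*, called by both DESeq2 and limma-voom), with summed levels of 561 to 811 CPM in MAC-1+ and 407 to 727 CPM in MAC-1- samples. Of the 14, 9 were at 0 in every 4 week MAC-1- sample and 2, *Csf1r* and *C1qa*, in every 4 week MAC-1+ sample. The 8 that were at 0 in MAC-1- and had counts in MAC-1+ samples were *Ly6c2*, *Ccr2*, *Cx3cr1*, *Fcgr1*, *Cd14*, *Mpeg1*, *F13a1* and *Ly86*. Of these, *Fcgr1* and *Ly86* had 1 count each in a single MAC-1+ sample. Among MAC-1+ samples *Ccr2* (29 counts), *Cx3cr1* (12) and *Cd14* (4) had counts in replicate 3 alone. The highest counts among the 8 were 2736 of *Ly6c2* and 435 of *F13a1*, both in replicate 3 of 4 week MAC-1+, where the other MAC-1+ samples had 0 to 4. *Mpeg1* had 25, 194 and 169 counts in the 3 MAC-1+ samples. In a bulk sample fewer cells of a type and less RNA per cell cannot be told apart.

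Between MAC-1low and MAC-1- HSCs at 4 weeks edgeR called 0 of the 5 other members, where 0.183% of all genes were called. *Ms4a6b* and *Ms4a6c* had an unadjusted p below 0.05, as did 7.25% of genes, and DESeq2 (2.65% of its genes called) and limma-voom (1.54% called) each called both. The difference in *Ms4a6b* had a log2 fold change of 1.45 (SE 0.35, adjusted p = 0.172, edgeR) and that in *Ms4a6c* of 1.58 (SE 0.56, adjusted p = 0.544, edgeR). Neither gene overlapped between the groups, as held for 5.23% of genes tested in that direction.

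At SS the MAC-1low and MAC-1- populations gave no call among the 6 members in edgeR, DESeq2 or limma-voom, where these called 0.0146%, 5.31% and 0% of all genes. An unadjusted p below 0.05 was found for 0 members and 9.36% of genes in edgeR. The log2 fold change was 0.03 (SE 0.36) for *Ms4a6b* and -0.49 (SE 0.57) for *Ms4a6c*. Whether the MAC-1low against MAC-1- difference was greater at 4 weeks than at SS was tested as an interaction. It was not past the threshold for *Ms4a6b* (log2 difference 1.42, SE 0.50, adjusted p = 0.451, edgeR) or for *Ms4a6c* (2.07, SE 0.79, adjusted p = 0.484, edgeR). Both had an unadjusted p below 0.05 in edgeR, as did 8.73% of genes. Of the 5 members, 0 were called by edgeR, DESeq2 or limma-voom, which called 0.0586%, 4.38% and 0.110% of all genes.

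Between MAC-1+ and MAC-1low HSCs at 4 weeks 0 of the 6 members were called by edgeR, DESeq2 or limma-voom, which called 0%, 2.05% and 0.0366% of all genes. An unadjusted p below 0.05 was found for 0 members and 6.85% of genes in edgeR. The log2 fold change was 0.13 (SE 0.33) for *Ms4a6b* and 0.62 (SE 0.53) for *Ms4a6c*.

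**Figure D4:**
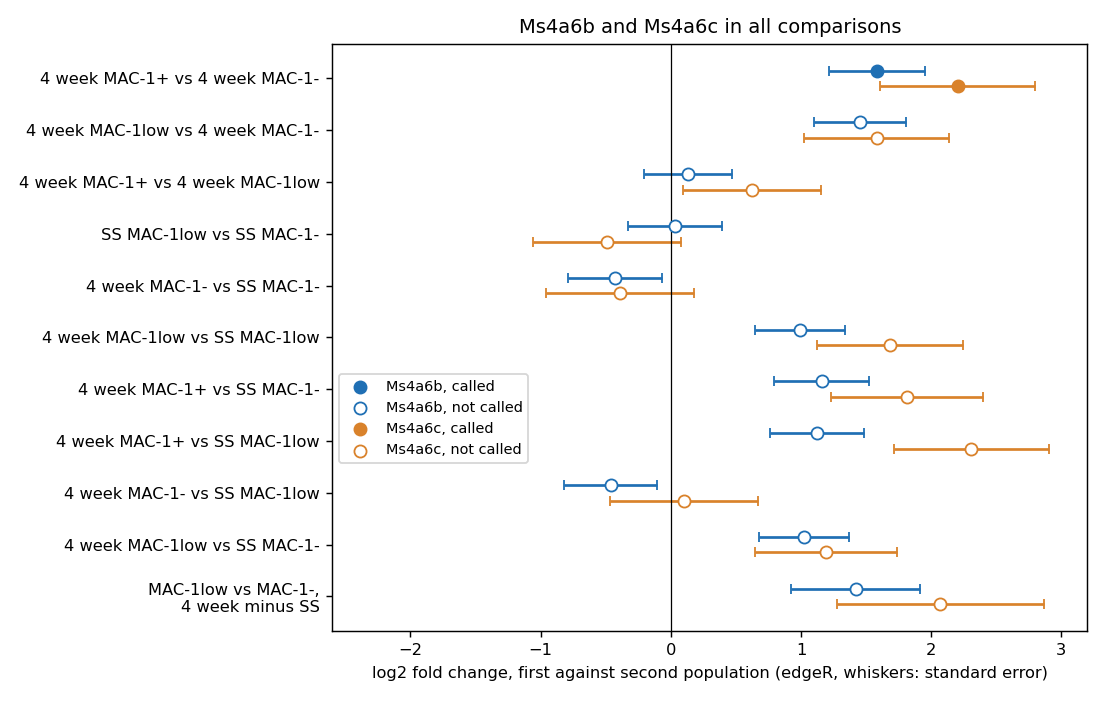
Log2 fold changes of Ms4a6b (blue) and Ms4a6c (orange) in the 10 comparisons of populations and in the interaction (bottom line), with standard errors as whiskers; filled points passed the thresholds in edgeR. Only the top line holds filled points, and the points of 4 week MAC-1low or MAC-1+ against SS lie between 0.99 and 2.31, while SS MAC-1low against SS MAC-1- and 4 week MAC-1- against either SS population lie between -0.49 and 0.10.

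*Ms4a4b* modulates activation and proliferation of T cells, where it is best known. It had 1, 0 and 1 counts in SS MAC-1-, 0 in the 3 SS MAC-1low samples and 0 in the 3 samples of 4 week MAC-1-. The 4 week MAC-1low samples held 0, 17, 720 and 284 counts, and those of MAC-1+ HSCs 895, 439 and 387. The gene was thus above 3 counts in 6 of 16 samples, in 0 of 6 at SS and in 6 of 10 at 4 weeks. All 3 samples of 4 week MAC-1+ were high, whereas 4 week MAC-1low ran from 0 to within the range of 4 week MAC-1+.

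The mean was 28.5 ± 13.6 CPM (SD, n = 3) in 4 week MAC-1+ and 12.1 ± 17.3 CPM (n = 4) in 4 week MAC-1low HSCs. With 3 counts allowed in each sample at 0, *Ms4a4b* was at least 177-fold higher in MAC-1+ than in MAC-1- HSCs at 4 weeks and at least 178-fold higher than in SS MAC-1low HSCs. Against SS MAC-1-, with 2 counts in all, the ratio was 722 (95% counting interval 199 to 5960, exact binomial on the summed counts). Such an interval covers counting error only and not the spread between samples. The comparison with SS MAC-1low did not use the values that chose the gene. The gene was above 3 counts in no SS sample and passed the filter on low counts only through the 4 week samples where it is high, so its tests against SS are given as values and support nothing. It was not past the threshold in edgeR (adjusted p = 0.115), where 1.02% of all genes were called, and passed it in DESeq2 (adjusted p = 2.93e-05) and limma-voom (adjusted p = 0.0785). Over the alternatives the adjusted p ran from 2.93e-05 to 0.303, and without replicate 1 of 4 week MAC-1low, the sample of its group at 0, it was 0.064 (edgeR). Without replicate 3 of 4 week MAC-1+ it was 0.187 (edgeR).

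T and NK cell genes were measured beside this gene, and their part in its values was not tested. Of 22 T and NK cell genes, 9 (*Cd3e*, *Cd3g*, *Cd2*, *Trbc1*, *Trbc2*, *Cd8a*, *Cd4*, *Klrd1*, *Ncr1*) were at 0 in all 10 samples of the 4 week groups, including the 6 with *Ms4a4b*. The summed level of the list at 4 weeks was 17.3 to 176 CPM in MAC-1+ and 323 to 645 CPM in MAC-1- samples. This sum mostly reflects 1 gene, *Nkg7*, which had the highest count of the list in each of these samples. The other genes of the list had at most 451 counts in any of them. Of 6 genes tested edgeR called 1, *Nkg7*, lower in 4 week MAC-1+ (337, 694 and 4446 counts, against 5145, 9916 and 10632 in 4 week MAC-1-), also without replicate 3 of 4 week MAC-1+ (log2 fold change -3.88 in place of -2.51). DESeq2 called *Nkg7* lower and *Klrb1c* higher, the latter with 0, 1 and 0 counts in MAC-1+ and 0 in the MAC-1- samples. *Lck* was not called by either (log2 fold change 1.39 and adjusted p = 0.896 in edgeR), with 2, 369 and 2 counts in MAC-1+ and 0, 233 and 0 in MAC-1- samples. *Zap70*, *Bcl11b*, *Klrb1c*, *Il2rb* and *Gzmb* were at 0 in every 4 week MAC-1- sample and had 0 to 4 counts in 4 week MAC-1+ samples.

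Sparse genes are common in these libraries, so the pattern of *Ms4a4b* was counted over all genes tested. A total of 386 genes (2.83%) were at 0 in every 4 week MAC-1- sample. Of these, 42 (0.307% of genes tested) were also above 3 counts in every 4 week MAC-1+ sample, and 5 (0.0366%) were in addition at or below 3 counts in every SS sample. The 5 were *Ms4a4b*, *Cd247*, *Mapk13*, *Zcchc12* and *1810006J02Rik*. The first of these conditions is the one that chose the gene, and no test is drawn from the counts.

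*Ms4a4c*, the close copy of *Ms4a4b* that is known from monocytes, had 0, 0 and 1 counts in SS MAC-1- and 0, 0 and 1 in SS MAC-1low samples. At 4 weeks it had 1, 0 and 291 counts in MAC-1-, 0, 1204, 158 and 885 in MAC-1low and 328, 831 and 0 in MAC-1+ samples. Every SS sample was thus at 0 or 1 count, and each 4 week population held a sample at 0 and 1 or more samples with at least 158 counts. The mean CPM was 5.88 ± 10.1 (SD, n = 3) in 4 week MAC-1-, 22.6 ± 26.8 (n = 3) in 4 week MAC-1+ and 24.1 ± 25.1 (n = 4) in 4 week MAC-1low, and the 3 populations overlapped.

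*Ms4a4c* too passed the filter on low counts only through 4 week samples, and its tests against SS are likewise values that support nothing. Its smallest p was found for 4 week MAC-1low against SS MAC-1low HSCs, with a log2 fold change of 9.98 (SE 3.48, adjusted p = 0.458, edgeR). With 1 count in SS MAC-1low in all, the ratio of the summed levels was 1510 (95% counting interval 270 to 59500, which leaves out the spread between samples). Over the alternatives the adjusted p ran from 0.00297, in DESeq2, to 0.719, and DESeq2 was the one setting past the threshold. Of the 13661 genes tested, 46 (0.337%) were at or below 3 counts in all 6 samples at SS and above 3 counts in at least 6 of the 10 samples at 4 weeks, *Ms4a4b* and *Ms4a4c* among them.

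Both Ms4a4 genes were above 3 counts in the same 5 samples, neither was in 9, *Ms4a4b* alone was in replicate 3 of 4 week MAC-1+ and *Ms4a4c* alone in replicate 3 of 4 week MAC-1-. In 4 week MAC-1low, *Ms4a4c* was highest in replicate 2, where *Ms4a4b* had 17 counts, and *Ms4a4b* was highest in replicate 3, where *Ms4a4c* had 158 counts. In 4 week MAC-1+, *Ms4a4b* with 387 counts stood beside 0 counts of *Ms4a4c* in replicate 3. Their counts thus did not keep 1 ratio.

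*Ms4a6d*, a macrophage protein that lies next to *Ms4a2*, had 0, 424 and 0 counts in SS MAC-1- and 993, 0 and 0 in SS MAC-1low samples. At 4 weeks it had 210, 0 and 149 counts in MAC-1-, 2, 318, 248 and 3 in MAC-1low and 0, 224 and 1 in MAC-1+ samples. It was above 3 counts in 7 samples, with at least 1 in each of the 5 populations, and all populations overlapped. Its smallest p was that of 4 week MAC-1+ against SS MAC-1low (log2 fold change -1.88, SE 3.17, adjusted p = 0.915, edgeR), which rested on the sample with 993 counts. Without that sample the log2 fold change turned to 9.54 (adjusted p = 0.527, edgeR).

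*Ms4a2*, the beta chain of the IgE receptor of mast cells and basophils, had 84 counts in replicate 3 of 4 week MAC-1+, 1 count in replicate 1 of SS MAC-1- and in replicate 3 of SS MAC-1low, and 0 in the other 13 samples. The sample with 84 counts (3.32 CPM) was the one with the high level of granulocyte progenitor genes. *Fcer1a*, the alpha chain of the same receptor, was at 0 in it. Replicates 1 and 3 of 4 week MAC-1- held 593 and 278 counts of *Fcer1a* with no *Ms4a2*, and elsewhere *Fcer1a* had at most 1. The 13 mast cell and basophil genes summed to 46.8 CPM in the sample with *Ms4a2*, against 0.628 and 1.66 CPM in the other 4 week MAC-1+ samples. The same sum was 26.1 to 120 CPM in 4 week MAC-1low and 37.6 to 85.9 CPM in 4 week MAC-1- samples. Neither of these groups had *Ms4a2*. In the sample with *Ms4a2* the sum rested mostly on *Cpa3* (921 counts) and *Il1rl1* (261). *Il1rl1* had at most 4 in any other sample, whereas *Cpa3* ran from 507 to 3207 over 4 week MAC-1low and MAC-1-. The part of these genes in the value of *Ms4a2* was not tested. Without replicate 3 of 4 week MAC-1+, *Ms4a2* had 2 counts in 15 samples.

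The other genes of the receptor's signalling path were taken from a list of 8 (*Fcer1a*, *Fcer1g*, *Lyn*, *Syk*, *Lat*, *Lcp2*, *Plcg2*, *Inpp5d*), of which 7 were tested. *Lat*, the adaptor that gathers signalling proteins below the receptor, was lower in MAC-1+ than in MAC-1- HSCs at 4 weeks (log2 fold change -2.10, adjusted p = 0.0292, edgeR, and -2.25, adjusted p = 0.0739, without replicate 3 of 4 week MAC-1+) and than in SS MAC-1- HSCs (-1.83, adjusted p = 0.0752, edgeR). *Fcer1g*, the gamma chain, was lower in 4 week MAC-1- than in SS MAC-1low HSCs (-2.45, adjusted p = 0.0571, edgeR). Between MAC-1+ and MAC-1- HSCs at 4 weeks edgeR called 0 of the 7 higher and 1 lower, where 1.11% of all genes were called higher and 1.37% lower. The median log2 fold change of the 7 was 0.78, against 0.0674 over all genes. DESeq2 also called *Inpp5d*, a lipid phosphatase that limits signalling of the receptor, as higher (log2 fold change 1.03, adjusted p = 0.273 in edgeR).

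The members were also compared between the 4 week and the SS populations. These differ in transplantation and in the irradiated host, and in most comparisons also in the MAC-1 gate, and these parts cannot be told apart. Here edgeR called 0 of the members in each of the 6 comparisons of a 4 week with an SS population. For MAC-1+ HSCs, set against SS MAC-1- and then SS MAC-1low, edgeR called 1.70% and 1.02% of all genes, and 1914 and 1651 of the 13661 genes had an unadjusted p below 0.05. *Ms4a6b* and *Ms4a6c* had one in both comparisons, and DESeq2 called both genes in both, where it called 8.98% and 6.77% of genes. With limma-voom (1.22% and 0.703% of genes called) *Ms4a6c* was called in the second. *Ms4a4b* and *Ms4a4c* also had an unadjusted p below 0.05 and a DESeq2 call in both, and *Ms4a4b* a limma-voom call in both, but these had passed the filter only through 4 week samples and are not counted as results.

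For the 4 week MAC-1low population, set against SS MAC-1- and then SS MAC-1low, edgeR called 0.139% and 0.0439% of all genes, and 10.7% and 8.89% had an unadjusted p below 0.05, again with *Ms4a6b* and *Ms4a6c* in both. DESeq2 (5.25% and 3.34% of genes called) called *Ms4a6b* in the first and *Ms4a6c* in the second, beside *Ms4a4b* and *Ms4a4c* in each, to which the same limit applies, and limma-voom (0.198% and 0.124% called) called 0. For the 4 week MAC-1- population edgeR called 0.381% and 0.395% of all genes, and 10.4% and 9.93% had an unadjusted p below 0.05, with neither *Ms4a6b* nor *Ms4a6c* in either. DESeq2 (6.07% and 4.86% of genes called) called *Ms4a4c* in both, and limma-voom (0.586% and 1.42% called) called 0. The calls of *Ms4a4c* rested on the 291 counts of replicate 3 of 4 week MAC-1-, beside 1 and 0 in the other samples. Without it both sides were at or below 3 counts and no fold is given. The adjusted p in DESeq2 then went from 0.0417 to 1 against SS MAC-1- and from 0.0450 to 0.996 against SS MAC-1low. These comparisons share samples and are not independent of each other.

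Among these comparisons the adjusted p of *Ms4a6c* was lowest between 4 week MAC-1+ and SS MAC-1low HSCs (log2 fold change 2.31, SE 0.60, adjusted p = 0.103, edgeR). *Ms4a6b* in that comparison had a log2 fold change of 1.12 (SE 0.36, adjusted p = 0.214, edgeR). Neither gene overlapped with an SS population in 4 week MAC-1+ (8.36% of genes tested were higher without overlap against SS MAC-1-, 7.71% against SS MAC-1low) or in 4 week MAC-1low (5.67% and 5.44%). Between the 4 week and the SS MAC-1- populations the log2 fold change was -0.43 (SE 0.36) for *Ms4a6b* and -0.39 (SE 0.57) for *Ms4a6c*, and the samples overlapped.

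The other Ms4a genes and the related *Tmem176a* and *Tmem176b* made a list of 16, of which 15 were in the table and 3 passed the filter on low counts. Of these 3, edgeR, DESeq2 and limma-voom called 0 in any comparison, and in edgeR 1 had an unadjusted p below 0.05 in each of the comparisons of 4 week MAC-1- with SS MAC-1- and with SS MAC-1low. *Ms4a3*, a gene of granulocyte and monocyte progenitors and the last gene of the cluster, had 4 to 3036 counts and was present in every sample. At 4 weeks it had 286, 4 and 2911 counts in MAC-1+ and 856, 3036 and 1303 in MAC-1- samples. Beside *Ms4a3*, 2 genes outside the members had more than 50 counts in a sample: *Ms4a7*, a macrophage gene, had 663 in replicate 3 of SS MAC-1low and *Ms4a15* 72 in replicate 3 of 4 week MAC-1-. *Ms4a1*, the gene of CD20, had 0 to 3 counts.

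How alike the members were over the 16 samples was measured by Pearson's r of log2 CPM, which is a description over samples that share population and depth. It was 0.755 for *Ms4a6b* with *Ms4a6c*, 0.702 and 0.754 for *Ms4a4b* with these, 0.647 for *Ms4a4b* with *Ms4a4c*, and 0.466 and 0.631 for *Ms4a4c* with *Ms4a6b* and *Ms4a6c*. *Ms4a6d* had r from -0.104 to 0.316 with the other 4. Among 11069 genes with a mean of at least 50 counts, those most like *Ms4a4b* were *Sbf2* (0.826), *Wfdc17* (0.804), *Wfdc18* (0.803), *Aftph* (0.801) and *Ecm2* (0.798). Those most like *Ms4a6b* were *Wfdc18* (0.844), *Hbb-bt* (0.843), *4930539E08Rik* (0.830), *Wfdc17* (0.822) and *Camk2d* (0.821), so that both *Wfdc17* and *Wfdc18* were on the lists of both genes.

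Those most like *Ms4a6c* were *Runx2* (0.876), *Luc7l2* (0.869), *4930539E08Rik* (0.851), *Socs2* (0.849) and *Zbtb34* (0.836). Those most like *Ms4a4c* were *Troap* (0.809), *D630029K05Rik* (0.796), *Ube2l6* (0.751), *Serpina3f* (0.733) and *Apol9b* (0.710), and those most like *Ms4a6d* were *Amot* (0.755), *Xpo5* (0.741), *Brpf1* (0.732), *4930579K19Rik* (0.725) and *Usf1* (0.722). None of the members was among the 5 genes most like another member. The 99th percentile of r over all genes was between 0.542 and 0.701 for the 5 members, so that these values are the extreme of many.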

How the data were processed

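RNA of HSCs of 5 populations (16 samples) was sequenced after SMART-Seq v4 amplification, which covers whole transcripts, keeps no strand and adds no molecular identifiers. The authors deposited counts of reads per gene, unnormalized, from STAR alignments of the nf-core pipeline. The submitters' processing notes name DESeq2. The sources used here do not give the counting program, genome build or annotation. Groups were taken from the sample titles. Gene positions are from GENCODE M21, which held 45143 of the 46078 identifiers, and promoters from RefSeq.

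They were tested with edgeR 4.0.16 in R 4.3.3 (TMM factors, default filter on low counts, robust quasi-likelihood test, 1 model with a mean per population, Benjamini-Hochberg adjustment over 13661 genes). A gene was called at an adjusted p below 0.1 with an absolute log2 fold change over 1. Log2 CPM used a prior count of 2. A ± is the SD, and an SE of a log2 fold change was derived from the edgeR F statistic. Totals were 13781278 to 28580658 counts per sample. DESeq2 1.42.0 and limma-voom (limma 3.58.1) with sample weights, DESeq2 size factors in edgeR, no filter, a stricter filter, only the groups compared, the replicate number as a block, and leaving out each sample were alternatives. The test code was also run on simulated counts, with planted changes larger than those of the called members, and nothing is drawn from that run. Coding sequences and promoters were aligned with Biopython 1.88, and plots were drawn with matplotlib 3.10.9.

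The members, the gene lists (other Ms4a genes, IgE receptor genes, and markers of HSCs, T and NK cells, monocytes and macrophages, mast cells and basophils, B cells and neutrophils) and the tests were chosen with earlier results of these data known. An item of the HSC list is not reported here. Named genes were the members, each with the comparisons called in edgeR or, with none, that of smallest p, the 5 genes most like each tested member, listed genes that were called or bear on a result, and both MAC-1 subunits. Other genes or comparisons named were chosen after their values were seen. Of 8 B cell genes, 3 were tested and 0 called by edgeR between MAC-1+ and MAC-1- HSCs at 4 weeks (0 at an unadjusted p below 0.05, 1 called by DESeq2), and of 13 mast cell and basophil genes 1 was tested and 0 called (0 at an unadjusted p below 0.05, 0 by DESeq2). *Itgb2* and *Itgam* were not called there by edgeR.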

Additional observations from a re-analysis of the deposited data

How the results depend on the processing

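With DESeq2, 2 members were called between MAC-1low and MAC-1- HSCs at 4 weeks, 3 in 4 week MAC-1low versus SS MAC-1low and 3 versus SS MAC-1-, 4 in 4 week MAC-1+ versus SS MAC-1- and 4 versus SS MAC-1low, and 1 in 4 week MAC-1- versus either SS population, in each case against 0 in edgeR. The counts against SS include *Ms4a4b* and *Ms4a4c*, which passed the filter only through 4 week samples. The call in 4 week MAC-1- was *Ms4a4c*, and DESeq2 without replicate 3 of 4 week MAC-1-, chosen after seeing the data, called 0. With limma-voom, 2 were called between MAC-1low and MAC-1- HSCs at 4 weeks, and 1 and 2 in 4 week MAC-1+ versus SS MAC-1- and versus SS MAC-1low. With no filter these were 1, 2 and 2, with 1 more in 4 week MAC-1low versus SS MAC-1low, and a stricter filter called 2 in 4 week MAC-1+ versus SS MAC-1low. With only the groups compared, 1 member was called between MAC-1+ and MAC-1- HSCs at 4 weeks. Leaving out 1 sample at a time gave 0 to 2 members there, with 0 without replicate 2 or 3 of 4 week MAC-1-, and 0 to 1 between MAC-1low and MAC-1- HSCs at 4 weeks (1 without replicate 1 of 4 week MAC-1-). It gave 0 to 1 in 4 week MAC-1+ versus SS MAC-1- (1 without replicate 3 of SS MAC-1low or replicate 1 of 4 week MAC-1low), and 0 to 1 versus SS MAC-1low (1 without either of these or replicate 3 of SS MAC-1-). The cause was not tested. For *Ms4a6d* in 4 week MAC-1+ versus SS MAC-1low the log2 fold change reversed to 0.245 in limma-voom and ran from -9.347 (without replicate 2 of 4 week MAC-1+) to 9.54 (without replicate 1 of SS MAC-1low) when single samples were left out. The other settings kept the direction of the 5 log2 fold changes followed, and those of *Ms4a6b* and *Ms4a6c* between MAC-1+ and MAC-1- HSCs at 4 weeks ran from 1.318 to 2.099 and from 1.936 to 2.476 when single samples were left out. The median log2 fold change over all genes in that comparison was 0.0674, 0.14 with DESeq2's size factors and, in limma-voom, -0.0877, with up to 0.228 in another comparison (4 week MAC-1low versus SS MAC-1-).

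Samples with the same replicate number in different populations did not deviate together (30 pairs, r from -0.025 to 0.04, and 6 of 16 samples correlated best with their own number). The replicate numbers of the titles thus gave no sign of pairing. The column names of the count table carry other sample numbers, which run in sequence across populations. By these, replicates 2 and 3 of 4 week MAC-1- stand next to replicates 3 and 4 of 4 week MAC-1low. The title numbers, used for the correlations and the block, do not keep these neighbours together. Pairing by the column numbers was not tested, so the correlations and the block do not decide whether samples were paired. With the replicate number as a block, 2 members were called between MAC-1+ and MAC-1- HSCs at 4 weeks and 0 in the other comparisons, the same counts as without the block. For genes near 0, 3 counts were 0.112 to 0.22 CPM, a floor for counting error only. Counts of replicates differed by more than sampling noise (chi-square per degree of freedom 120 to 291 over 18 pairs), so depth alone did not set the precision.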
